A study of Homo sapiens with 4 samples.

Results

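The genes described here encode the machinery of macroautophagy, taken as 41 listed symbols and sorted by step into initiation, conjugation, cargo receptor and fusion genes. Of the 41, 40 had a row in the table of 28814 genes, and all 40 were among the 16862 genes with enough reads to be tested. GABARAPL1 was not analysed here. RNA was sequenced from 697, a human cell line established from a B-cell precursor leukaemia, kept for 24 h in 1 µM MZ1 (2 libraries) or in an equal volume of its solvent DMSO (2 libraries). MZ1 joins a bromodomain binder (JQ1) to a VHL binder and, through the VHL ubiquitin ligase, directs the bromodomain proteins it binds to the proteasome. Both groups are the same line, so the values describe 1 genetic background, and the labels do not say whether replicates were separate cultures. Each p-value therefore reflects only how these libraries varied, and that variation may be technical.

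In macroautophagy a double membrane closes around cell contents and delivers them to the lysosome. The ULK1 kinase complex starts the process when nutrient signalling through mTORC1 falls, a PI3-kinase complex marks the membrane with a lipid, and a ubiquitin-like conjugation system fixes proteins of the ATG8 family (LC3 and GABARAP) to it. Receptors such as p62 hold cargo against ATG8 proteins, and tethers and SNAREs fuse the finished vesicle with the lysosome. TFEB and its relatives, FOXO factors and other transcription factors control genes of the pathway. In B-lineage cells the process is known for its part in the survival of memory B cells and plasma cells.

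The depth was 14544789 and 14246367 counted reads in the MZ1 libraries and 16005427 and 16488005 in the DMSO libraries. Levels are given in CPM, the reads of a gene as a share of its library after TMM scaling, and a log2 fold change is MZ1 over DMSO relative to the other genes. No spike-in is named, so a change per cell cannot be told from a change in share, nor fewer cells of a kind from less RNA per cell. Mitochondrially encoded genes held 8.98% and 9.26% of the counts in the MZ1 libraries, against 5.82% and 5.48% in the DMSO libraries. Histone genes held 1.21% and 1.23% with MZ1, against 0.0399% and 0.0386% with DMSO. All 12 B-cell precursor markers were detected, with a summed level of 1448 and 1495 CPM in the MZ1 libraries, against 4213 and 4211 CPM in the DMSO libraries. In absolute CPM, DNTT showed the widest gap, at 84.3 and 94.4 CPM with MZ1 and 1244 and 1224 CPM with DMSO. IGLL1 differed by the largest ratio, at 7.498 and 7.372 CPM with MZ1 and 500 and 484 CPM with DMSO. RAG1 overlapped between the groups. The 4 myeloid markers with a row summed to 21.1 and 17.2 CPM with MZ1 and 6.35 and 5.31 CPM with DMSO, with MPO at 0 in both DMSO libraries. LYZ, MPO and CD14 were higher with MZ1, whereas CSF1R had 0.99 and 0.87 CPM with MZ1 and 5.62 and 4.66 CPM with DMSO. TRBC2, the only T cell marker with a row, stayed at or below 0.212 CPM, and the erythroid marker HBA1 was at 0 in the DMSO libraries. Without mitochondrially encoded and histone genes the fit called 24 autophagy genes higher and 12 lower, the same counts as with them. The part of the marker shifts in the autophagy values was not tested.

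MZ1 changed nearly all of the autophagy genes, more of them upward. Of 40 tested, 24 rose, 12 fell and 4 were not called (quasi-likelihood test of edgeR, Benjamini-Hochberg adjustment over all 16862 genes, threshold 0.05). The same call was made for 84.2% of all tested genes, with 42.8% higher and 41.3% lower, so the share of calls itself (90.0% of the autophagy genes) is close to the background. The rises made up 60.0% of the autophagy genes and the falls 30.0%. At least 2-fold rises numbered 15 (37.5%, against 29.0% of all tested genes), and at least 2-fold falls numbered 2 (5.0%, against 26.2%). The 40 genes are all protein-coding, and over protein-coding tested genes these shares were 22.2% for rises and 29.9% for falls. The median log2 fold change of the autophagy genes was 0.55, with quartiles of −0.33 and 1.30. The median was 0.047 over all tested genes and −0.20 over protein-coding ones. The MZ1 and DMSO libraries did not overlap for 38 of the 40 genes, against 91.3% of all tested genes. With upper-quartile scaling, which moved all log2 fold changes up by a median of 0.27, 26 autophagy genes were higher and 6 lower, and 58.5% of all calls were rises in place of 50.9%. The distance between their median and that of all genes was 0.51 under that scaling and 0.50 with TMM. It was 0.30 without a count filter and 0.68 with at least 10 reads required in every library, settings that change which genes are compared.

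**Figure D1:**
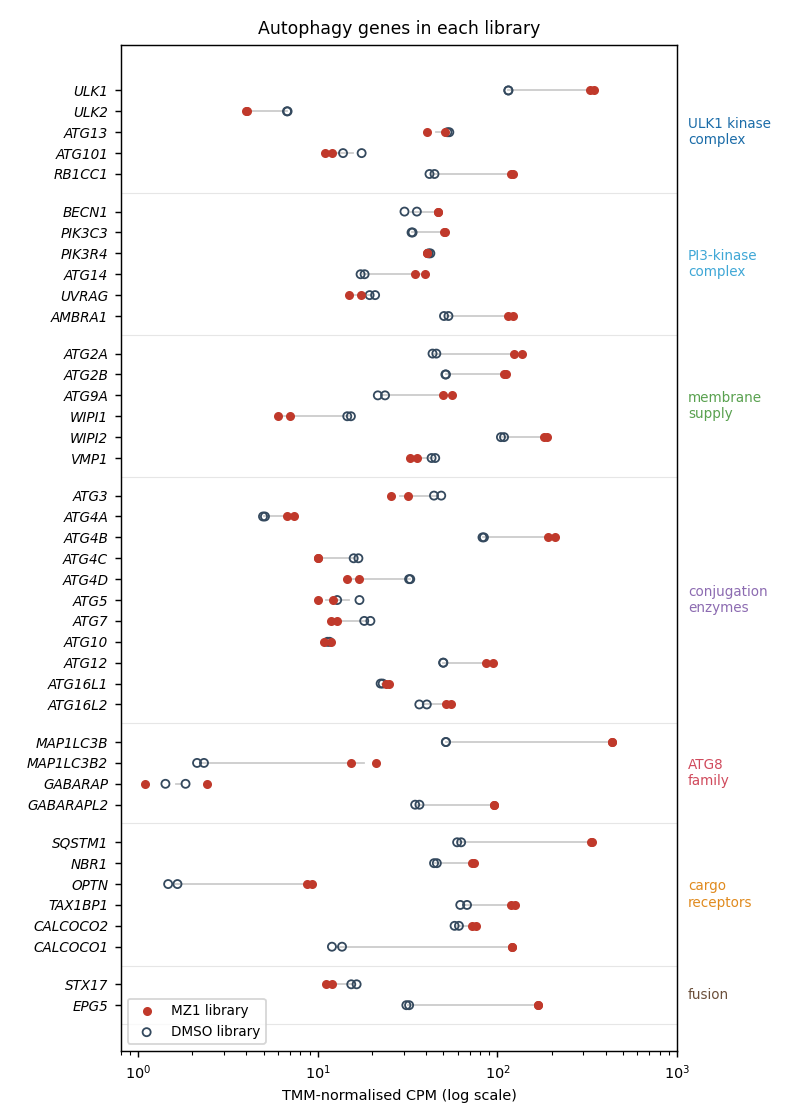
Level of each tested autophagy gene in each library, as TMM-normalised CPM on a log scale, grouped by step; filled points are MZ1 libraries, open points DMSO libraries, and the grey line joins the 2 group means. MAP1LC3B, SQSTM1, CALCOCO1 and EPG5 show the widest gaps among genes above 100 CPM with MZ1, and GABARAP and ATG10 are the genes whose groups overlap.

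Rises were most frequent among the ATG8 family and cargo receptor genes, a count given here without a test between steps. Over all tested genes 42.8% were higher, and of 14 further selective receptor genes described below 6 rose and 7 fell. All 6 cargo receptor genes rose (median 1.68). Of the 4 tested ATG8 family genes 3 rose and 0 fell (median 2.22). In the 17 initiation genes 10 rose and 6 fell (median 0.60). Among the 11 conjugation enzymes and their ATG12, ATG5 and ATG16 partners 4 rose and 5 fell (median −0.01), and of the pair of fusion genes 1 rose and 1 fell. Summed over a step, cargo receptors stood at 733 and 733 CPM with MZ1 and 246 and 244 CPM with DMSO, while the conjugation enzymes and partners stood at 467 and 459 CPM with MZ1 and 341 and 339 CPM with DMSO.

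**Figure D2:**
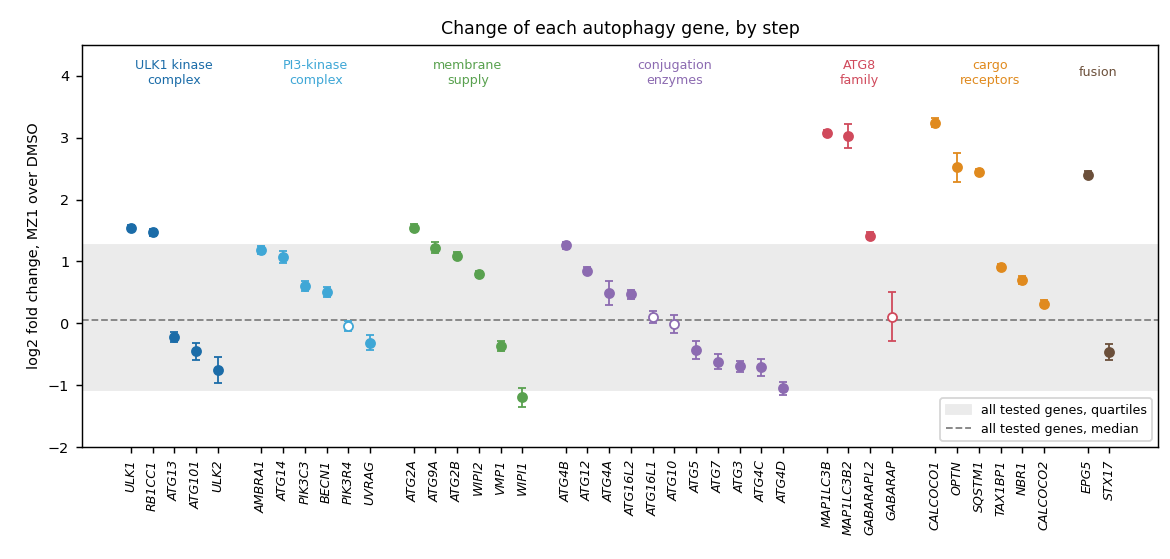
Log2 fold change (MZ1 over DMSO) of each tested autophagy gene with its standard error, by step; filled points passed an adjusted p of 0.05, open points did not, and the grey band and dashed line give the quartiles and the median of all 16862 tested genes. The 6 receptor genes all lie above the median of all genes, while conjugation enzymes run from 1.26 (ATG4B) to −1.05 (ATG4D).

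Promoter windows from RefSeq (build GRCh38.p14) run from 250 bases before to 50 bases after an annotated start. They were present for 35 of the 41 symbols, some with several starts. None was present for CALCOCO1, EPG5, RB1CC1, ATG4D, STX17 or UVRAG, so the gene with the largest rise (CALCOCO1) was not searched. They were searched on both strands for CACGTG, the E-box at the core of the CLEAR element that TFEB binds and that MYC and MAX also recognise, for TGACTCA (AP-1) and for GTAAACA (forkhead), motifs that do not overlap one another. CACGTG occurred in 2 of 43 windows of autophagy genes (4.65%), against 9.20% of the windows of tested genes and 7.26% of all windows. The holders were ATG14, whose RNA was higher with MZ1, and ATG3, whose RNA was lower. GTAAACA occurred in 1 of the 43 windows (2.33%, against 2.70% of tested genes' windows), in CALCOCO2. TGACTCA occurred in 0 of them, against 3.35%. These counts describe the letters in these windows only.

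The windows below run 5′ to 3′ on the gene's strand and belong to genes chosen among those with a window. ATG14 (chr14:55411781-55412080, minus strand) and ATG3 (chr3:112561913-112562212, minus strand) hold the E-box and moved in opposite directions. MAP1LC3B (chr16:87392086-87392385, plus strand) had the highest level per length of the list with MZ1. MAP1LC3B2 (chr12:116559131-116559430, plus strand) is its close relative. For SQSTM1 (chr5:179820655-179820954, plus strand) 1 of 3 windows is shown. WIPI1 (chr17:68457447-68457746, minus strand) is the member with the largest fall. Capitals mark CACGTG.
ATG14: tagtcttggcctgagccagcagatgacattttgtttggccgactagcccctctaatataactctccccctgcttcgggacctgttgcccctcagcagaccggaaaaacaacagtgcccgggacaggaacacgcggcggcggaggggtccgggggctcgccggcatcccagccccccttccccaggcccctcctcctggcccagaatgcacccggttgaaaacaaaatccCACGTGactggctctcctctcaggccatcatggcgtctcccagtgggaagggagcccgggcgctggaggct
ATG3: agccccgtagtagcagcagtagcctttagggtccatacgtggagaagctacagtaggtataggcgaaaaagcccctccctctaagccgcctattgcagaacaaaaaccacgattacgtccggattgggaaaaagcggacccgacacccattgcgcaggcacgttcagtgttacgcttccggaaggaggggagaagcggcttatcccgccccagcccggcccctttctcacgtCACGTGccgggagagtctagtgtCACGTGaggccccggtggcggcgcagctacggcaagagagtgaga
MAP1LC3B: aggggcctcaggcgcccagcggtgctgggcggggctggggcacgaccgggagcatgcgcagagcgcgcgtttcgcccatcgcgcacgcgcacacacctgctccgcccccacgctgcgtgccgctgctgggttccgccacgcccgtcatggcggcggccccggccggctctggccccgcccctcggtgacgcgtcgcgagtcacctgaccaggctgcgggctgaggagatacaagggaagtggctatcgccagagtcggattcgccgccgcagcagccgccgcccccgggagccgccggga
MAP1LC3B2: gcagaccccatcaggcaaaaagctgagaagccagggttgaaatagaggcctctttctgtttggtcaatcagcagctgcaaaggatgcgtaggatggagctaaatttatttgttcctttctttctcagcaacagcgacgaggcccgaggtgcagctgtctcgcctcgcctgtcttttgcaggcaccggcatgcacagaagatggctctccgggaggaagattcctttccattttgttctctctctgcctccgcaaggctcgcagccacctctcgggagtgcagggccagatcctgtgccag
SQSTM1: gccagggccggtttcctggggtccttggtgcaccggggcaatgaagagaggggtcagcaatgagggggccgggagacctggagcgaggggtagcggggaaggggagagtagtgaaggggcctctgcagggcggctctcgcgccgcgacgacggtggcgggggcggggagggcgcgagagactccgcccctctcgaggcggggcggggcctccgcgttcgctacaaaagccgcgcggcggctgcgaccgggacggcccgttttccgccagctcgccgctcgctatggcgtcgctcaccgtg
WIPI1: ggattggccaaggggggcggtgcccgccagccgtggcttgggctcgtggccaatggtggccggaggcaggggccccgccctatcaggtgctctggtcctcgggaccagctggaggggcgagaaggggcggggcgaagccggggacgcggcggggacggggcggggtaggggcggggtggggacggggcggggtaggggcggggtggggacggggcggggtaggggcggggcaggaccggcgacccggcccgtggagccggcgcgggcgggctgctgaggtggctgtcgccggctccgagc
In ATG14 the E-box begins 21 bases before the start. ATG3 has one beginning 18 bases before the start and another beginning at base 6 after it. The other windows shown hold no capital letters.

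Within the ULK1 complex the genes of the kinase ULK1 and its scaffold RB1CC1 rose. ULK2, ATG13 and ATG101 were called lower, ATG13 and ATG101 with fragile calls. ULK1, the kinase that starts autophagy (chromosome 12, 131894651 to 131923167, GRCh38), had 344 and 328 CPM in MZ1 libraries, against 115 and 115 CPM in DMSO libraries. The fitted log2 fold change was 1.55 with an SE of 0.05 (edgeR adjusted p = 2.62e-20), and both MZ1 libraries lay far above both DMSO libraries. RB1CC1 (FIP200), the large scaffold of the complex, had 121 and 119 CPM with MZ1, against 44.6 and 41.8 CPM with DMSO (log2 fold change 1.47 ± 0.06, the ± being an SE here and after each fold change below). ULK2, a close relative of ULK1, was much scarcer, at 4.03 and 3.98 CPM with MZ1 and 6.78 and 6.73 CPM with DMSO (−0.75 ± 0.21). The groups of these 3 genes were well apart.

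ATG13 and ATG101 bind each other in the complex and link it to membranes, and both calls were fragile. ATG13 had 40.4 and 50.8 CPM in MZ1 libraries, against 53.9 and 52.6 CPM in DMSO libraries. Its MZ1 libraries differed more from each other than the nearer one did from DMSO. Its change of −0.23 ± 0.08 was not called without MZ1 replicate 1 (−0.062) and became 0.046 with upper-quartile scaling. ATG101 had 10.89 and 11.998 CPM with MZ1, against 13.8 and 17.5 CPM with DMSO. Its change of −0.45 ± 0.14 was not called without DMSO replicate 2 (−0.31), and an opposite-strand gene covers 19.2% of its exonic bases.

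In the PI3-kinase complex ATG14, AMBRA1, PIK3C3 and BECN1 were higher, UVRAG was lower and PIK3R4 was not called. ATG14, which directs the complex to autophagosome formation, had 39.7 and 34.6 CPM in MZ1 libraries and 18.2 and 17.3 CPM in DMSO libraries (1.07 ± 0.10). UVRAG, which takes the place of ATG14 in the form that acts on endosomes, had 17.5 and 14.9 CPM with MZ1 and 20.8 and 19.4 CPM with DMSO (−0.31 ± 0.12). The UVRAG call was lost without MZ1 replicate 2 (−0.20) or DMSO replicate 1 (−0.31), and with upper-quartile scaling (−0.042). AMBRA1, a scaffold that also brings substrates to ubiquitin ligases, rose to 122 and 114 CPM with MZ1, against 53.3 and 50.4 CPM with DMSO (1.18 ± 0.06).

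The catalytic subunit gene PIK3C3 (VPS34) had 51.2 and 50.4 CPM with MZ1 and 33.2 and 33.7 CPM with DMSO (0.60 ± 0.07). BECN1 (beclin 1), the subunit that BCL2 proteins bind, had 46.8 and 46.5 CPM with MZ1 and 30.4 and 35.6 CPM with DMSO (0.50 ± 0.08; edgeR adjusted p = 5.2e-06). Both genes rose by less than 2-fold, and the opposite-strand genes CNTD1 and PSME3 cover 17.1% of the exonic bases of BECN1. PIK3R4 (VPS15), the regulatory subunit, had 40.7 and 40.4 CPM with MZ1 and 41.4 and 42.3 CPM with DMSO and was not called (edgeR adjusted p = 0.585), although with upper-quartile scaling it was called higher (0.23).

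Genes that supply and extend the membrane rose in 4 of 6 cases. ATG2A and ATG2B, the proteins that move lipids into the growing membrane, rose to 136 and 124 CPM and to 108 and 112 CPM with MZ1. In the DMSO libraries ATG2A stood at 43.5 and 45.7 CPM and ATG2B at 51.7 and 51.3 CPM (1.54 ± 0.06 and 1.10 ± 0.06). ATG9A, the scramblase whose vesicles seed the membrane, had 55.6 and 49.8 CPM with MZ1 and 21.6 and 23.7 CPM with DMSO (1.22 ± 0.09). For ATG9A, 38.8% of the exonic length is also part of a same-strand gene in the table, so its count is less certain.

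WIPI proteins read the lipid made by the PI3-kinase, and their genes moved apart. WIPI2, the member that recruits ATG16L1, had 188 and 181 CPM with MZ1, against 109 and 105 CPM with DMSO (0.79 ± 0.05). WIPI1 had 7.003 and 5.999 CPM with MZ1, against 15.3 and 14.6 CPM with DMSO (−1.20 ± 0.15; edgeR adjusted p = 8.26e-08), the largest fall of the 40 genes. Opposite-strand genes, among them ARSG, cover 28.1% of its exonic bases. VMP1, an ER scramblase needed for the membrane to close, had 32.6 and 35.8 CPM with MZ1 and 45.0 and 43.0 CPM with DMSO (−0.36 ± 0.08), a call lost with upper-quartile scaling (−0.090).

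The conjugation enzymes showed no common direction. ATG7, the E1-like enzyme that activates both ATG8 proteins and ATG12, had 12.7 and 11.8 CPM in MZ1 libraries, against 19.6 and 18.1 CPM in DMSO libraries (−0.62 ± 0.12; edgeR adjusted p = 6.44e-05). ATG3, the E2-like enzyme for ATG8 proteins, had 31.6 and 25.7 CPM with MZ1 and 48.6 and 44.3 CPM with DMSO (−0.70 ± 0.09). Both fell with no overlap between groups, and the opposite-strand gene VGLL4 covers 18.1% of the exonic bases of ATG7. ATG10, the E2-like enzyme for ATG12, had 11.9 and 10.8 CPM with MZ1 and 11.3 and 11.6 CPM with DMSO, overlapped between groups and was not called (−0.012 ± 0.14).

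ATG12, ATG5 and ATG16L1 form the complex that acts as the last ligase. ATG12 had 86.2 and 94.0 CPM with MZ1, against 49.85 and 49.97 CPM with DMSO, a rise of 0.85 ± 0.06. ATG5 had 10.04 and 12.07 CPM with MZ1 and 17.0 and 12.8 CPM with DMSO (−0.43 ± 0.15; edgeR adjusted p = 0.0108). The nearest ATG5 libraries of the 2 groups almost met, and its call was lost without DMSO replicate 1 (−0.26), without MZ1 replicate 1 (−0.30) and with upper-quartile scaling (−0.16). ATG16L1 had 23.9 and 24.9 CPM with MZ1 and 22.4 and 23.0 CPM with DMSO. It was not called (0.11 ± 0.10), but was called higher with upper-quartile scaling (0.38). ATG16L2, its relative, rose to 51.7 and 55.1 CPM with MZ1, against 36.7 and 40.4 CPM with DMSO (0.47 ± 0.07).

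The ATG4 proteases, which trim ATG8 proteins before conjugation and release them from membranes, went different ways. ATG4B, the most active of them on LC3, had 208 and 191 CPM in MZ1 libraries, against 82.5 and 84.1 CPM in DMSO libraries (1.26 ± 0.05). ATG4D fell to 14.6 and 16.8 CPM with MZ1, against 32.2 and 32.7 CPM with DMSO (−1.05 ± 0.10), with 14.97% of its exonic bases covered by the opposite-strand gene KRI1. ATG4C had 9.97 and 9.97 CPM with MZ1 and 15.8 and 16.8 CPM with DMSO (−0.71 ± 0.13). These 3 genes kept their calls and directions under all 13 alternatives run for them. ATG4A, at 6.72 and 7.37 CPM with MZ1 and 4.95 and 5.07 CPM with DMSO, was called higher (0.49 ± 0.19) but lost the call without MZ1 replicate 2 (0.42), without DMSO replicate 1 (0.43) and without DMSO replicate 2 (0.47).

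The ATG8 family held the gene with the second largest rise. MAP1LC3B (LC3B), the ATG8 protein most used as a marker of autophagosomes (chromosome 16, 87383995 to 87404779, GRCh38), had 435 and 434 CPM in MZ1 libraries, against 51.6 and 51.7 CPM in DMSO libraries. The groups are far apart and the replicates nearly equal, and the gene rose by 3.07 ± 0.05 on the log2 scale (edgeR adjusted p = 8.95e-26). MAP1LC3B2, a close relative of MAP1LC3B, had 21.0 and 15.3 CPM with MZ1 and 2.32 and 2.12 CPM with DMSO (3.03 ± 0.20). Of the 50-base words in the annotated transcripts of MAP1LC3B2 15.1% also occur in other genes, chiefly MAP1LC3B. MAP1LC3B counts were 20.7 and 28.5 times those of MAP1LC3B2 with MZ1 and 22.2 and 24.3 times with DMSO. The ratio thus differed by less than the spread between libraries. Whether reads of one gene were counted in the other was not tested.

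GABARAPL2 (GATE-16), of the GABARAP branch, had 96.2 and 95.1 CPM with MZ1 and 36.8 and 34.8 CPM with DMSO (1.42 ± 0.06). GABARAP had 34 and 15 reads with MZ1 and 30 and 24 reads with DMSO, which is 2.40 and 1.08 CPM against 1.83 and 1.42 CPM, and was not called (edgeR adjusted p = 0.802). The GABARAP libraries overlap, and 55.7% of the exonic length is shared with other annotated genes, among them a same-strand gene, so this low count is uncertain. Its log2 fold change was 0.11 ± 0.39, the widest error of the 40 genes.

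All 6 cargo receptor genes rose, by very different amounts. CALCOCO1, an ER-phagy receptor (chromosome 12, 53708517 to 53727745), had 121 and 121 CPM in MZ1 libraries, against 11.97 and 13.6 CPM in DMSO libraries, the largest rise of the 40 (3.24 ± 0.07; edgeR adjusted p = 1.45e-22). SQSTM1 (p62), which gathers ubiquitin-tagged cargo and is itself degraded by autophagy (chromosome 5, 179806398 to 179838078), had 334 and 334 CPM with MZ1 and 59.6 and 62.8 CPM with DMSO (2.45 ± 0.05; edgeR adjusted p = 1.16e-23). The opposite-strand genes MRNIP and MGAT4B cover 22.0% of its exonic bases. OPTN (optineurin), a receptor for mitochondria and bacteria, stood at only 9.27 and 8.67 CPM with MZ1 and 1.47 and 1.65 CPM with DMSO (2.52 ± 0.24). The DMSO value of OPTN rests on 24 and 28 reads.

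The other receptors changed by less than 2-fold. TAX1BP1, which binds ubiquitin and protein aggregates, had 125 and 119 CPM with MZ1 and 67.7 and 62.1 CPM with DMSO (0.91 ± 0.06). NBR1, which works with p62 in aggregates and peroxisomes, had 72.0 and 74.3 CPM with MZ1 and 44.4 and 46.0 CPM with DMSO (0.70 ± 0.06). CALCOCO2 (NDP52), known from the capture of bacteria, had 72.3 and 75.8 CPM with MZ1 and 61.0 and 57.7 CPM with DMSO (0.32 ± 0.06; edgeR adjusted p = 3.99e-05). All 6 receptor calls and directions held under all 13 alternatives.

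The fusion genes on the list split. EPG5, a tether that gives autophagosomes their specificity for late endosomes and lysosomes (chromosome 18, 45847609 to 45967339), had 167 and 167 CPM in MZ1 libraries, against 31.1 and 32.2 CPM in DMSO libraries (2.40 ± 0.06; edgeR adjusted p = 2.53e-22). STX17, the SNARE of the closed autophagosome, had 11.95 and 11.1 CPM with MZ1, against 16.4 and 15.3 CPM with DMSO (−0.46 ± 0.13). Both differences exceed the spread between replicates. The STX17 call was lost with upper-quartile scaling (−0.19).

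**Figure D3:**
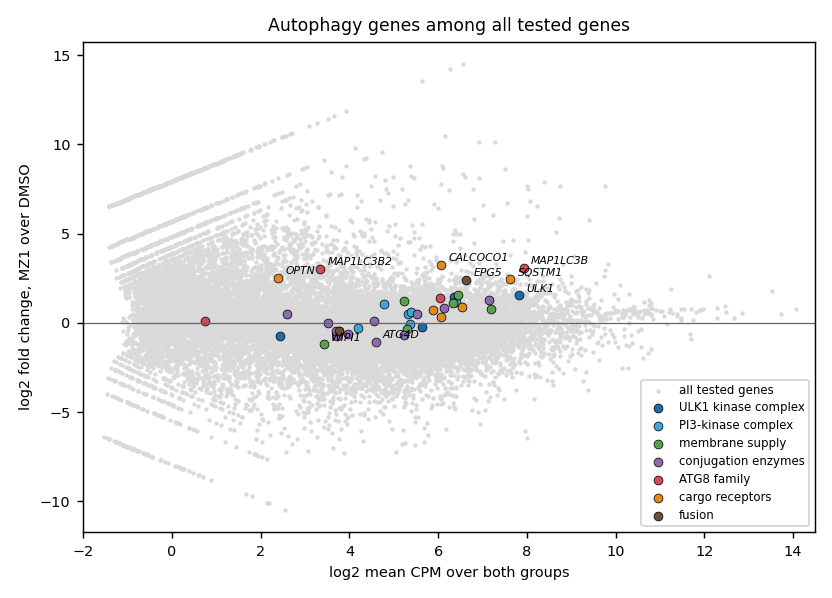
Log2 fold change (MZ1 over DMSO) against log2 mean CPM over both groups for all 16862 tested genes in grey and the 40 autophagy genes in colour by step. Autophagy genes lie inside the cloud of all genes. MAP1LC3B, SQSTM1, EPG5 and CALCOCO1 lie above the upper quartile of all tested genes (1.26). Other genes, among them SESN3 (4.63), rose more.

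Per kilobase of annotated exon, the order of the genes differed between the groups. With MZ1, MAP1LC3B led at 81.8 ± 0.08 CPM per kilobase (SD, n = 2), ahead of ULK1 at 44.1 ± 1.5 and SQSTM1 at 43.6 ± 0.08. The ULK1 and SQSTM1 values did not differ beyond their spread. With DMSO, ULK1 led at 15.1 ± 0.02 CPM per kilobase, followed by ATG4D at 14.2 ± 0.15 and ATG4B at 12.5 ± 0.16. MAP1LC3B was the sixth at 9.72 ± 0.02. CALCOCO1 ranked 10 with MZ1 and 36 with DMSO, and EPG5 ranked 12 with MZ1 and 31 with DMSO. ATG4D moved the other way, ranking 22 with MZ1 and 2 with DMSO. ULK2, GABARAP and ATG7 were the 3 lowest with MZ1, at 0.41, 0.77 and 1.39 CPM per kilobase. Exonic length is the union of all annotated exons, so these levels understate genes with long alternative exons.

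Ratios of counts within a library do not depend on how libraries are scaled. ULK1 reads were 85.3 and 82.5 times those of ULK2 with MZ1 and 17.0 and 17.1 times with DMSO. For WIPI2 over WIPI1 the ratio was 26.8 and 30.2 with MZ1 and 7.12 and 7.17 with DMSO. ATG4B over ATG4D gave 14.3 and 11.3 with MZ1 and 2.56 and 2.57 with DMSO. In these pairs of relatives, picked after values were seen, the more abundant gene became more dominant with MZ1, in both libraries. ATG16L1 over ATG16L2 went the same way, at 0.46 and 0.45 with MZ1 and 0.61 and 0.57 with DMSO. ATG2A over ATG2B did not, at 1.26 and 1.11 with MZ1 and 0.84 and 0.89 with DMSO, so the order of their read counts turned round. ATG12 over ATG5 was 8.59 and 7.78 with MZ1 and 2.93 and 3.90 with DMSO, although the 2 proteins are joined one to one. For MAP1LC3B over GABARAPL2 the ratio was 4.52 and 4.57 with MZ1 and 1.40 and 1.49 with DMSO. CALCOCO1 over CALCOCO2 was 1.67 and 1.598 with MZ1 and 0.20 and 0.24 with DMSO, so the order of these receptors' read counts turned round. The libraries of the groups do not overlap in any of these ratios. With 2 libraries against 2, a two-sided exact permutation p cannot be below 0.333.

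**Figure D4:**
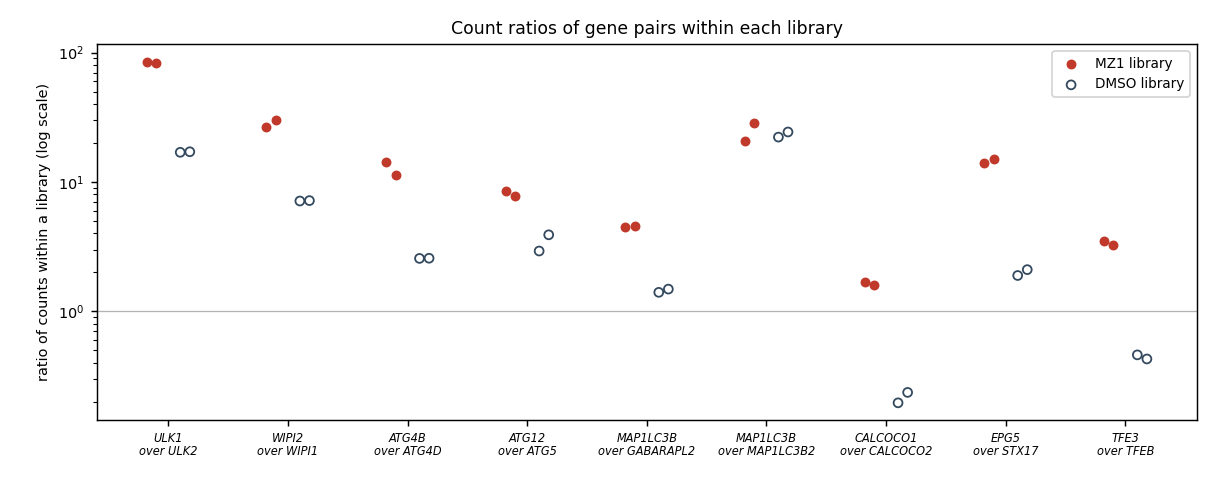
Ratio of read counts of gene pairs within each library, on a log scale; filled points are MZ1 libraries, open points DMSO libraries. All pairs shown are apart between the groups except MAP1LC3B over MAP1LC3B2, where MZ1 (20.7 and 28.5) and DMSO (22.2 and 24.3) overlap.

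Genes around the machinery moved in both directions. Over 6 further lists chosen by function, 48 of 109 tested genes rose, 46 fell and 15 were not called (median 0.032), close to the background of 42.8% higher and 41.3% lower. Of 17 other fusion genes 9 rose and 4 fell (median 0.50). PLEKHM1, an adaptor that binds ATG8 proteins and the HOPS tether, had 233 and 226 CPM with MZ1, against 33.8 and 40.1 CPM with DMSO (2.63 ± 0.06), a count that may include reads of its near-identical pseudogene. VPS39 of HOPS rose 3.34-fold and SNAP29, the SNARE partner of STX17, 3.24-fold. VPS33A of the same tether fell 2.37-fold and VPS41 1.53-fold. GRAMD1A, placed on this list although it is neither a part of that tether nor a SNARE, fell 1.37-fold.

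Further selective receptors included 6 of 14 that rose and 7 that fell (median −0.19). TOLLIP rose 2.90-fold, NCOA4, the ferritin receptor, 1.63-fold, and BNIP3, a mitophagy receptor, 1.86-fold. FUNDC1, another mitophagy receptor, fell to 1.49 and 1.23 CPM with MZ1, against 10.3 and 9.204 CPM with DMSO. FKBP8 fell 4.66-fold and the ER-phagy receptor gene TEX264 2.05-fold. The difference between this list and the 6 receptors above was not tested.

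Other core genes and modulators included 7 of 18 that rose and 6 that fell (median −0.11). TP53INP1, a p53 target whose protein binds ATG8 proteins, had 1340 and 1321 CPM with MZ1, against 24.8 and 23.7 CPM with DMSO (5.78 ± 0.05). WDR45B (WIPI3) rose 1.98-fold, and RUBCN (Rubicon), which holds the PI3-kinase complex back, 2.41-fold. KEAP1, the ubiquitin ligase adaptor that p62 binds, fell to 18.1 and 19.7 CPM with MZ1, against 148 and 144 CPM with DMSO (−2.95 ± 0.07). SQSTM1 reads were 18.4 and 17.0 times KEAP1 reads with MZ1 and 0.40 and 0.44 times with DMSO. The deubiquitinase genes USP10 and USP13 fell 1.85-fold and 1.58-fold.

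Upstream, genes of 3 mTORC1 subunits, named for their small adjusted p, were lower, and genes of nutrient sensing moved both ways. Other genes of this list, among them AKT1S1, are given in the observations at the end. In the list of mTORC1, amino acid sensing and TSC genes 13 of 29 rose and 13 fell (median −0.15). MLST8 and RPTOR, subunits of mTORC1, fell 9.29-fold and 6.78-fold, and MTOR, the kinase, had 163 and 164 CPM with MZ1 and 349 and 349 CPM with DMSO. SESN3, a sestrin that lowers mTORC1 activity, had 403 and 391 CPM with MZ1, against 15.6 and 16.4 CPM with DMSO (4.63 ± 0.06). FLCN (folliculin), which acts on Rag GTPases, and its partner FNIP1 rose 6.14-fold and 9.25-fold. The AMPK list had 4 of 9 genes higher and 5 lower (median −0.30). PRKAA1, the catalytic subunit of AMPK that phosphorylates ULK1, fell 2.78-fold. Its upstream kinases CAMKK2 and STK11 (LKB1) fell 3.45-fold and 2.46-fold, while the LKB1 partners STRADA and CAB39 rose 3.64-fold and 1.70-fold and the AMPK subunit gene PRKAB2 1.94-fold.

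Of 22 transcriptional regulators of autophagy genes 9 rose and 11 fell (median −0.042), and MITF was not analysed here. TFEB, the factor best known for this role, had 17.8 and 20.1 CPM with MZ1, against 56.8 and 56.1 CPM with DMSO (−1.58 ± 0.09). TFE3, its close relative, had 62.6 and 64.9 CPM with MZ1, against 26.1 and 24.0 CPM with DMSO (1.35 ± 0.08). TFE3 reads were 3.53 and 3.23 times TFEB reads with MZ1 and 0.46 and 0.43 times with DMSO, so the more abundant of the pair by read count differed between the groups. FOXO1 and FOXO3 rose 2.41-fold and 2.01-fold, and HIF1A rose 3.22-fold. MYC fell 87.1-fold, EHMT2, a histone methyltransferase reported to repress autophagy genes, 5.52-fold, and E2F1 3.93-fold.

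**Figure D5:**
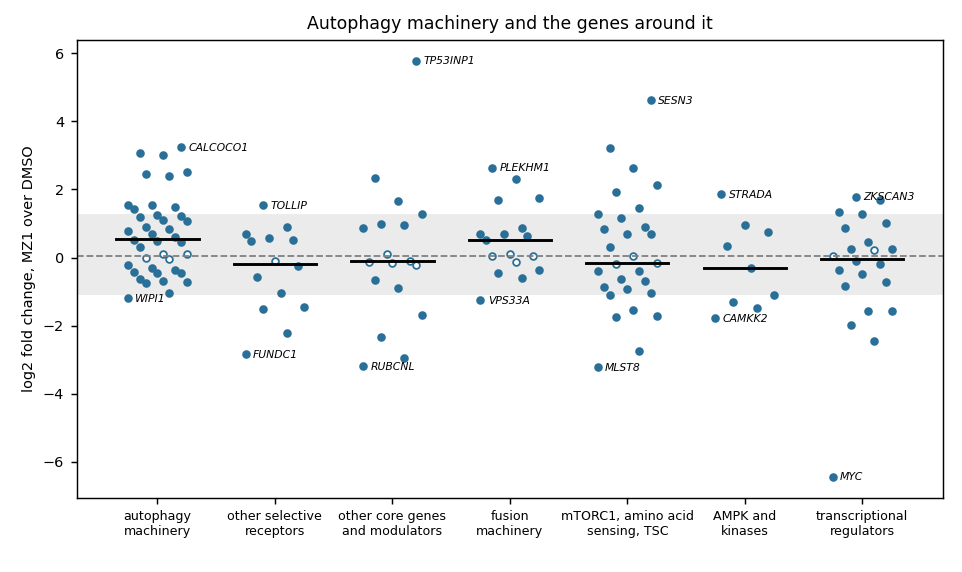
Log2 fold change (MZ1 over DMSO) of the 40 autophagy genes and of 6 lists around them; filled points passed an adjusted p of 0.05, open points did not, black bars are list medians, and the grey band and dashed line give the quartiles and median of all tested genes. The medians of the machinery (0.55) and of the other fusion genes (0.50) lie above those of the other lists.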

How the data were processed

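RNA of 4 libraries of 697 cells was sequenced, and the authors deposited whole-number read counts for each Ensembl ID, not normalised. The submitters' processing notes list HISAT2 2.2.0 and hg38. How reads were counted, and whether by strand, is not given in the sources used here, and overlapping genes cannot be told apart. GENCODE release 29 (GRCh38) held each of the 28814 IDs and gave positions, exonic lengths and overlaps.

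Counts were fitted in R 4.3.3 with edgeR 4.0.16 (filterByExpr, TMM, glmQLFit, glmQLFTest, treatment as the only term) over all 16862 tested genes. A Benjamini-Hochberg adjusted p below 0.05 was called. The fit was also run on simulated counts in which few genes changed, in nearly equal numbers up and down. In these data most genes were called, so that run cannot show how TMM scaling behaves here. Standard errors are the unshrunk coefficient divided by the root of F. Replicates differed by more than sampling noise (chi-square per degree of freedom 2.17 for MZ1 and 2.44 for DMSO). Alternatives used DESeq2 1.42.0, limma 3.58.1 and other scalings, filters and subsets of libraries. Members and lists were chosen with earlier results of these data known. Members were named throughout, with up to 3 genes per direction of each further list by smallest adjusted p, plus TFEB, TFE3, FOXO3 and TP53INP1, and 1 further gene of that rule is not reported here; the promoters shown and the gene pairs were chosen after values were seen. Protein sequences were not used here.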

Additional observations from a re-analysis of the deposited data

How the results depend on the processing

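Of 40 autophagy genes, 31 kept their call under all 13 alternatives. So did the 39 genes taken from the wider lists by the rule given above. Most of those were picked for the smallest adjusted p in the same fit, so their stability was largely fixed by the choice. Genes of the wider lists that are named only in the observations below were not among the 39. With upper-quartile scaling 6 autophagy genes were called lower in place of 12. ATG13 turned to 0.046 (not called) and PIK3R4 to 0.23 (called) under that scaling. Leaving out 1 library gave 23 to 24 autophagy genes higher and 10 to 11 lower, from fits in which the lone library is assumed to vary like the others. DESeq2 called 23 higher and 8 lower, the count floor of 10 reads in every library 25 and 9, and no count filter 23 and 10. Leaving out GABARAP and MAP1LC3B2, added after seeing the data, gave 23 higher and 12 lower. The replicate block gave 24 higher and 12 lower. Deviations of libraries with the same number had a correlation of 0.014, so the numbers are not shown to pair the libraries. Calls near the threshold (ATG4A, ATG5, ATG13, ATG101, UVRAG) rest on 81 to 892 reads per library, and the causes of their loss were not tested.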

Other observations

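Complexes around mTORC1 did not move as units, in genes named here after their values were seen. Of the 5 LAMTOR (Ragulator) genes, which hold Rag GTPases on the lysosome, LAMTOR3 was higher (35.9 and 35.7 CPM with MZ1, 18.9 and 19.2 CPM with DMSO), while LAMTOR1, LAMTOR2, LAMTOR4 and LAMTOR5 were lower, with log2 fold changes of −0.40 to −1.53. Of the Rag genes RRAGA (0.69), RRAGB (0.70) and RRAGC (1.93) were higher and RRAGD (−1.75) lower. TSC1 and TSC2, which restrain the pathway, were higher by 1.16 and 0.85, and the GATOR1 genes NPRL2, NPRL3 and DEPDC5, whose products also restrain it, had log2 fold changes of −1.03, −1.71 and −0.92. The mTORC1 gene AKT1S1 was not called (0.049), DEPTOR was too low to test, and FNIP2, the relative of FNIP1, was not called (−0.18). Among the tether genes VPS11, VPS16 and VPS18, VPS11 was called (0.50), whereas VPS16 and VPS18 were not.

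MAP1LC3A, another LC3 gene, had 2 and 1 reads with MZ1 and 3 and 1 with DMSO and was too low to test. Log2 fold change was correlated with the log2 mean DMSO level (Spearman), as a description over genes that share libraries. The value was 0.26 over the 40 autophagy genes, all of them protein-coding. It was −0.31 over the 12639 protein-coding tested genes and −0.46 over all 16862 tested genes. The DMSO level is also the denominator of the fold change, and a gene can pass the count filter through its MZ1 reads alone. Both can make such values negative by themselves, so these values cannot be read as a trait of the genes. The 15 autophagy genes at least 2-fold higher had a median DMSO level of 43.2 CPM, and the 12 lower ones 17.6 CPM.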
